A study of Mus musculus with 6 samples.

Results

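Pomc-high neurons of the mouse hypothalamus were compared between E13.5 and E15.5, ages counted in days of embryonic life. Members were chosen by their own UMIs (unique molecular identifiers, which count captured RNA molecules): a cell was called a Pomc-high neuron when at least 10 of every 10000 of its UMIs were Pomc and at least 3 of the 6 neuronal genes Elavl3, Mapt, Snap25, Stmn2, Syt1 and Tubb3 had a UMI. By this rule 456 cells were chosen at E13.5 and 524 at E15.5, which is 980 of the 3874 cells in both libraries and of the 13953 cells of the series. All cells came from C57BL/6 embryos of crosses between POMCDsRed/+ parents, in which the red fluorescent protein DsRed is made under control of Pomc sequences, and had been sorted for red fluorescence. No other allele or drug treatment was named. Each age was 1 library from the pooled hypothalami of at least 6 animals, and both were made with version 2 of the 10x Genomics 3′ reagents, but tissue was digested in papain for 20 min at E13.5 and 30 min at E15.5. With 1 library an age there is no measure of the spread between animals, so no test was made and no p-value is given, and the 95% intervals cover counting error only. Differences between ages, litters, pools, digestion times and library runs cannot be told apart.

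Pomc encodes proopiomelanocortin, a precursor that is cut into melanocortin peptides and beta-endorphin. In the arcuate nucleus of the hypothalamus, neurons that make it restrain food intake. They are born early, and transcription factors including Isl1, Nkx2-1 and Prdm12 are known to be needed for Pomc expression in them, while many cells that express Pomc in the embryo later become neurons of other peptidergic types.

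The level of a gene is the number of its UMIs summed over the Pomc-high neurons of a library, per 10000 summed UMIs, and was 35.3 for Pomc at E13.5 and 42.8 at E15.5. The median cell had 26.3 Pomc UMIs per 10000 at E13.5 and 34.2 at E15.5, and 40 or more were held by 28.5% of the cells at E13.5 and 42.7% at E15.5. These values follow from the rule and are a description. The cells nearest to the limit had 10.05 Pomc UMIs per 10000 on the inside and 9.97 or 9.98 on the outside at the 2 ages, with 28 cells between 10 and 12 at E13.5, 31 at E15.5, and 40 between 8 and 10 at each. All 6 neuronal genes were found in 60.1% of the cells at E13.5 and in 41.8% at E15.5. Pomc-high neurons were 26.8% (95% interval 24.7 to 29.0) of the cells that met the neuronal part of the rule at E13.5 and 26.0% (24.1 to 28.0) at E15.5.

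The chosen cells held 7818515 UMIs at E13.5 and 6913007 at E15.5, with a median of 17166.5 and 12240.5 UMIs per cell. Shares of cells with a UMI were therefore also taken after each cell was thinned at random to 5000 UMIs, which left out 2 cells at E13.5 and 18 at E15.5. Mesenchymal cells of the same libraries, 163 at E13.5 and 69 at E15.5 with median depths of 13799 and 12277 UMIs, were used as the background for neuronal genes. Of these, 68 and 28 also met the neuronal part of the rule, so this background was not free of neuronal transcripts. Mitochondrially encoded genes took 3.44% and 3.52% of the UMIs and ribosomal protein genes 13.8% and 13.9%, and 2 cell barcodes occurred in both libraries. Among markers of other cells, the 9 mesenchymal genes summed to 0.867 at E13.5 and 0.373 at E15.5, against 131.8 and 147.2 in the mesenchymal cells, the 7 endothelial genes to 0.073 and 0.081, the 7 oligodendrocyte lineage genes to 0.665 and 0.658, and the 11 pituitary genes to 0.006 and 0.014. The 9 microglia markers summed to 0.014 at E13.5 and 0.634 at E15.5. Of the 10 markers of astrocytes and radial glia, which summed to 1.18 and 1.47, 3 were over the floor defined below. The hemoglobin genes summed to 9.73 and 1.72, and UMIs of the embryonic gene Hbb-y were found in all 456 cells at E13.5 and in 46.2% at E15.5.

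Most of the transcriptome of Pomc-high neurons differed by less than 2-fold between the 2 ages, and a small set of genes stood apart. Among the genes at least 2-fold higher at E15.5 were the transcription factor gene Tbx3 and its antisense transcript, the transcription cofactor gene Cited1, the granule genes Scg2 and Pcsk2, subunits of the AMPA type of glutamate receptor, and a group of immediate early genes. Among those at least 2-fold lower were the transcription factor genes Nr5a1, Sox14, Tcf7l2 and Myc, and Ina, which encodes a neurofilament protein of young neurons. The lineage factor genes Isl1, Nkx2-1 and Prdm12 did not reach 2-fold either way.

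Of 5926 genes whose mean level over both ages was at least 0.2 (the floor), 58 (0.979%) were at least 2-fold higher at E15.5 and 42 (0.709%) at least 2-fold lower, after 0.1 was added to each level. The median log2 ratio over these genes was 0.04, and the middle 50% lay between -0.15 and 0.20. Counts of called genes and medians of the gene lists below stand beside these values over all genes. Whether a list differs from all genes was not tested. Of the 58 genes, 25 were also at least 2-fold higher at E15.5 in Pomc-low neurons, the cells of the same libraries that met the neuronal part of the rule but had less Pomc, and of the 42 genes 13 were also at least 2-fold lower there. In Pomc-low neurons as a whole, 48 of 6273 genes were at least 2-fold higher and 86 at least 2-fold lower. Both classes of cells came from the same 2 libraries, so their values stand side by side and are not independent. The Pomc-low neurons also include the 68 and 28 mesenchymal cells that met the neuronal part of the rule. Levels were also taken among the 193 and 96 Pomc-high neurons with no UMI of the immediate early genes Fos, Jun, Junb and Egr1, a choice made after the data were seen, and are given where a named gene then missed 2-fold. Whether a cell lacks such a UMI also depends on its depth, which was not matched. The log2 ratios of these fewer cells carry no interval.

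**Figure D1:**
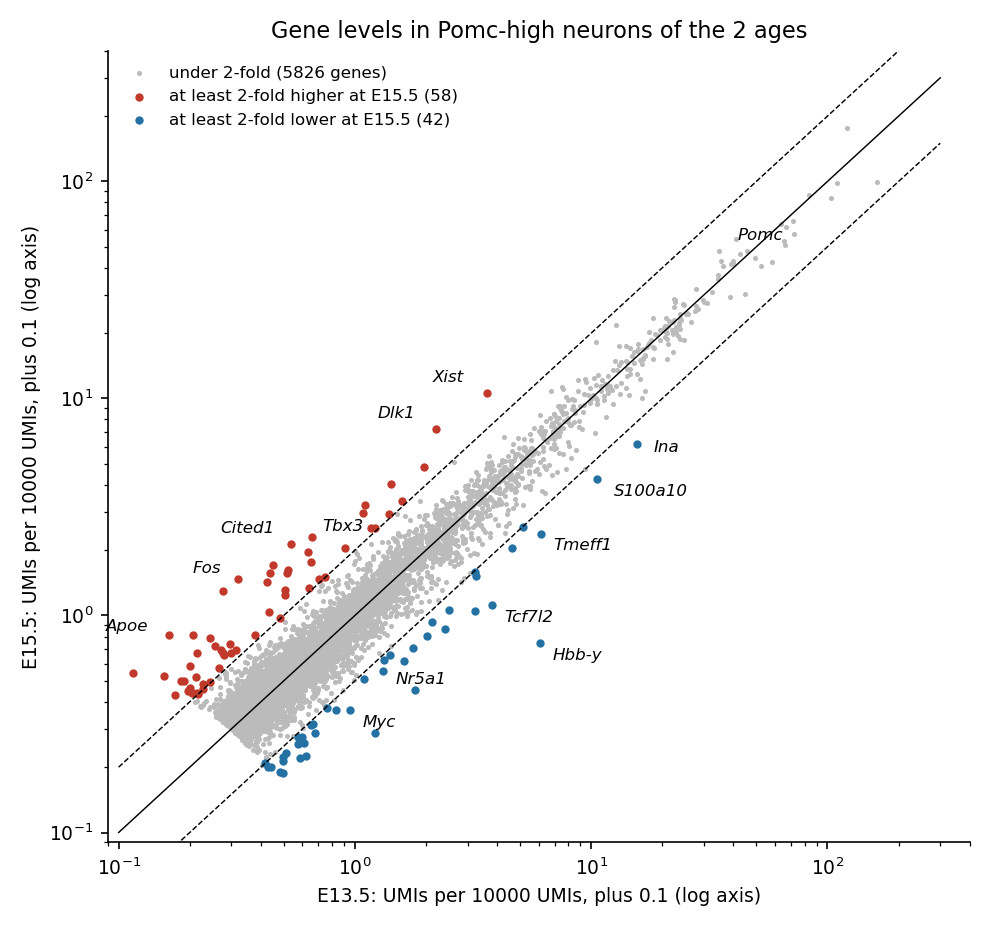
Level of each gene over the floor at E13.5 (x axis) and E15.5 (y axis) in Pomc-high neurons, in UMIs per 10000 UMIs plus 0.1, on log axes. The solid line marks equal levels and the dashed lines a 2-fold difference: 58 genes lie above the upper one and 42 below the lower one.

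Tbx3, which encodes a T-box transcription factor of the arcuate nucleus, had the largest log2 ratio among the listed Pomc lineage factors over the floor. Its level was 0.560 (95% interval 0.509 to 0.615) at E13.5 and 2.2 (2.09 to 2.31) at E15.5, a ratio of 3.92 (3.53 to 4.38). A Tbx3 UMI was found in 32.5% of Pomc-high neurons at E13.5 and 78.8% at E15.5. After thinning the shares were 20.5% (16.9 to 24.5) and 58.1% (53.7 to 62.4), against 0 of 163 mesenchymal cells, which by 3 counts allows a share of cells with a UMI of up to 1.84%, and 11.6% of 69. The share of cells with a Tbx3 UMI thus differed between the ages at equal depth too. Levels of Tbx3 were 0.115 at E11.5 and 2.84 at E17.5. Taken as a difference in level, the widest of the 3 steps between these ages was from E13.5 to E15.5. Taken as a ratio, the step from E11.5 to E13.5 was larger.

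The antisense transcript Tbx3os1 was low at E13.5, with a level of 0.106, and 0.716 at E15.5, a ratio of 6.75 (5.34 to 8.62). Its level was 0.0011 at E11.5 and 1.5 at E17.5. Tbx3 lies on the plus strand at chr5:119670669-119684724 and Tbx3os1 on the minus strand at chr5:119570130-119671365 (GENCODE M21, build GRCm38), so the genes share the first 697 bases of Tbx3, and how reads of that stretch were assigned by strand is not given in the sources used here. In thinned cells at E15.5, Tbx3os1 was found in 30.6% of the cells with Tbx3 and 15.1% of those without it. At E13.5 the same shares were 20.4% and 2.22%. In both libraries the antisense transcript was thus found in a larger share of the cells with Tbx3, which is a description of these cells.

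Cited1 encodes a transcriptional cofactor that binds no DNA itself. Its level was 0.437 at E13.5 and 2.04 at E15.5, a ratio of 4.66 (4.14 to 5.26), and 0.0995 and 2.58 at E11.5 and E17.5. In mesenchymal cells, however, its level was 0.595 and 0.696, and at equal depth 20.2% and 26.1% of them had a UMI, against 14.1% and 40.7% of Pomc-high neurons. The share at E13.5 did not exceed that of the mesenchymal cells, which gave no low background for this gene. At E15.5, 49.0% of the thinned cells with Tbx3 and 29.2% of those without Tbx3 had Cited1.

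The factors that define the lineage were not called. Isl1, a homeobox factor bound at the Pomc enhancers, was at 5.98 at E13.5 and 4.97 at E15.5, a ratio of 0.832 (0.796 to 0.869). Nkx2-1, the homeobox factor of the ventral hypothalamus, was at 7.03 and 4.49, a ratio of 0.638 (0.611 to 0.667). Prdm12, a zinc finger factor, was at 1.42 and 1.00, a ratio of 0.708 (0.643 to 0.779). All 3 intervals excluded 1, but none of these genes was 2-fold lower. At equal depth Isl1 was found in 89.2% and 86.0% of the cells, Nkx2-1 in 91.6% and 80.2%, and Prdm12 in 45.6% and 38.7%, far above the 7.36% and 5.80%, 7.36% and 17.4%, and 2.45% and 1.45% of mesenchymal cells. The homeobox factor genes Six3 (4.05 and 3.22) and Six6 (3.76 and 3.10) gave ratios of 0.795 and 0.824, and the bHLH factor gene Nhlh2 (2.2 and 2.85) gave 1.30. Over the 24 genes of the lineage list 17 were over the floor. Of these 1 was at least 2-fold higher (Tbx3), 2 were at least 2-fold lower (Nr5a1 and Sox14) and 14 were between. Over all genes the shares were 0.979% higher and 0.709% lower. The median log2 ratio of the list was -0.27, against 0.04 over all genes.

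Nr5a1 encodes steroidogenic factor 1, best known from neurons of the ventromedial hypothalamus. Its level was 1.21 (1.14 to 1.29) at E13.5 and 0.454 (0.405 to 0.507) at E15.5, which is 2.67-fold lower. Among the cells without an immediate early UMI the log2 ratio was -0.75, under 2-fold. Thinned cells with a UMI were 40.7% (36.2 to 45.4) at E13.5 and 16.8% (13.6 to 20.3) at E15.5, and mesenchymal cells 1.23% and 1.45%. Its level was 1.29 at E11.5 and 0.0345 at E17.5. Nr0b1, the gene of the corepressor DAX1, was at 0.501 and 0.204, a ratio of 0.407 (0.333 to 0.494), but with 0.1 added it missed 2-fold, at a log2 ratio of -0.98.

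Sox14, a SOX factor gene, was at 2.03 and 0.833, 2.43-fold lower, and was found in 47.6% and 21.1% of thinned cells. In Pomc-low neurons, in contrast, the ratio of Sox14 was 1.11, and that of Nr5a1 was 0.632. Of the 8 ventromedial markers listed, 3 were over the floor, 2 of them at least 2-fold lower (the same Nr5a1 and Sox14), and the list summed to 3.76 at E13.5 and 1.62 at E15.5. The third, Rorb, was at 0.251 and 0.153, a log2 ratio of -0.47. Under the floor, Fezf1 was at 0.123 and 0.0984 and Bdnf at 0.0179 and 0.0217.

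The shares of cells with Nr5a1 or Sox14 were lower among cells with Tbx3 than among those without it at both ages. Among thinned cells at E13.5, Nr5a1 was found in 19 of 93 cells with Tbx3 (20.4%) and in 46.0% of those without, and Sox14 in 16.1% and 55.7%. At E15.5, Nr5a1 was found in 29 of 294 cells with Tbx3 (9.86%) and in 26.4% of those without, and Sox14 in 10.5% and 35.8%. The share of Nr5a1 was lower at E15.5 in both kinds of cell. Whether 1 kind of cell replaced another or the same cells changed cannot be told apart from 2 libraries. The cells were also divided by their Pomc level, the value the rule used, and the values of these classes are a description. At E13.5 Tbx3 was at 0.330 in cells with 10 to 20 Pomc UMIs per 10000, 0.386 in those with 20 to 40 and 1.07 in those with 40 or more, while Sox14 was at 2.44, 2.16 and 1.38. At E15.5 the 3 classes gave 1.74, 2.14 and 2.50 for Tbx3 and 1.54, 0.805 and 0.466 for Sox14. Nr5a1 was at 1.35, 1.29 and 0.952 at E13.5 and at 0.582, 0.505 and 0.345 at E15.5.

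**Figure D2:**
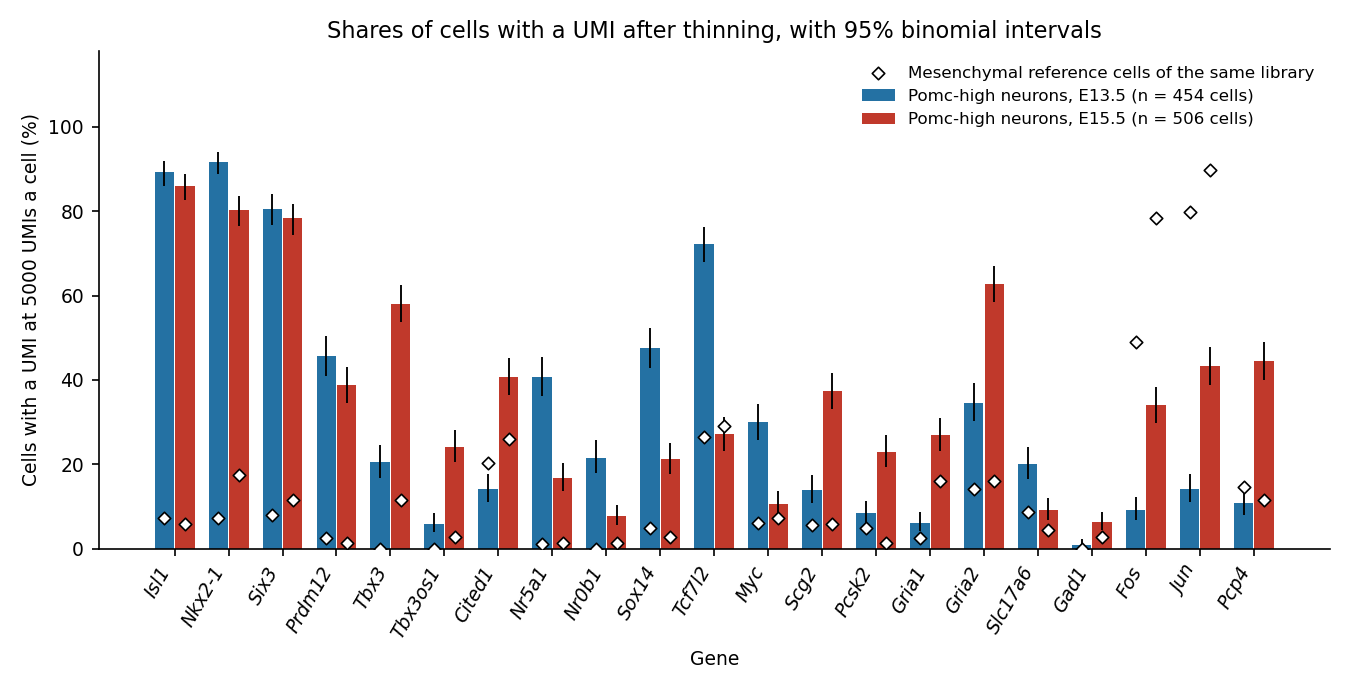
Percent of Pomc-high neurons with at least 1 UMI of each gene (y axis) after thinning to 5000 UMIs a cell, at E13.5 (blue bars, n = 454 cells) and E15.5 (red bars, n = 506 cells), with 95% binomial intervals. Diamonds give the mesenchymal cells of the same library. Tbx3 goes from 20.5% to 58.1% and Nr5a1 from 40.7% to 16.8%, while the shares of Fos and Jun are larger in mesenchymal cells than in Pomc-high neurons.

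Tcf7l2, which encodes the factor that acts with beta-catenin in Wnt signalling, had the lowest log2 ratio of the leading genes, -1.77. Its level was 3.70 (3.56 to 3.83) at E13.5 and 1.02 (0.943 to 1.09) at E15.5, 3.63-fold lower. It was 1.2 at E11.5 and 0.452 at E17.5, so that E13.5 was its highest point of the 4 ages. In Pomc-low neurons it was at 6.25 and 1.59. At equal depth 72.2% of Pomc-high neurons had a UMI at E13.5 and 27.1% at E15.5, and 26.4% and 29.0% of mesenchymal cells, so the E15.5 share was not above theirs. Dlk1, which encodes a Notch ligand relative, was at 2.10 and 7.14, a ratio of 3.41 (3.22 to 3.60). These were the called genes of the Notch and Wnt list, with 4 of 29 genes over the floor, 1 higher and 1 lower. Rbpj, the factor through which Notch acts, was at 0.281 and 0.380, and Ctnnb1, the gene of beta-catenin, at 1.15 and 1.05.

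Of 18 genes of progenitors and newborn neurons over the floor (of 35 listed), 2 were at least 2-fold lower and none at least 2-fold higher. Over all genes the shares were 0.709% and 0.979%. The median log2 ratio of the list was -0.39. Myc, a growth-related factor gene, was at 0.853 and 0.266, 3.21-fold lower. Cdkn1c, a cell cycle inhibitor gene, was at 3.13 and 1.49, 2.10-fold lower, but missed 2-fold among the cells without an immediate early UMI (a log2 ratio of -0.48) and under 5 other choices of cells or averaging (-0.99 to -0.81). The tubulin gene Tubb2b (71.9 and 56.9) and the SOX factor gene Sox4 (7.47 and 7.23) were between. Ina, the gene of alpha-internexin, was outside this list and was at 15.53 (15.3 to 15.8) and 6.09 (5.91 to 6.28), 2.55-fold lower, with 15.7 at E11.5 and 2.42 at E17.5. Only 3 of 20 cell cycle genes were over the floor, none of them 2-fold apart, and the list summed to 1.03 and 1.19, against 19.9 and 11.8 in mesenchymal cells.

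Of 26 genes known from temporal patterning of the nervous system, 14 were over the floor, 1 at least 2-fold higher and 2 at least 2-fold lower. Over all genes the shares were 0.979% and 0.709%. The median log2 ratio of the list was -0.18. Zbtb20, a zinc finger factor gene, was at 0.981 and 2.87, a ratio of 2.93 (2.69 to 3.19). Igf2bp1, an RNA-binding protein gene of early development, was at 0.396 and 0.114, 3.47-fold lower, and the orphan receptor gene Nr2f2 at 0.340 and 0.0998, 3.41-fold lower. Nr2f2 was under 2-fold among cells with a Xist and no Y-linked UMI (a log2 ratio of -0.54) and among cells with Pomc at least 20 per 10000 (-0.93). Igf2bp1 was under 2-fold among cells with a Y-linked and no Xist UMI (-0.83). The nuclear factor I genes were under the floor and are given because of their counts: Nfib had 36 UMIs at E13.5 and 191 at E15.5, a ratio of 6.00 (4.19 to 8.82), and Nfix 0 and 59. With 3 UMIs put in place of the 0 at E13.5, Nfix was 22.2-fold higher at E15.5. This value leaves out the counting error of the 59 UMIs and is not a lower limit. A Nfix UMI was found in 6.30% of the cells at E15.5, without thinning, and in 20.3% of mesenchymal cells. For Nfib the shares were 17.4% and 78.3%, so the mesenchymal cells held these transcripts themselves and gave no background for them.

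Factors of other neuronal classes were scarce. Of 27 listed genes 3 were over the floor, none 2-fold apart. Otp, a homeobox factor of peptidergic neurons, was at 0.168 and 0.369, a ratio of 2.2 (1.78 to 2.74) that with 0.1 added came to a log2 ratio of 0.81. Of its UMIs, 54.2% lay in 5 cells at E13.5 and 30.6% in 5 cells at E15.5. An Otp UMI was found in 31 cells at E13.5 and in 19.3% of the cells at E15.5, and at equal depth in 4.19% and 11.1%, against 1.84% and 5.80% of mesenchymal cells. Foxp2 was at 0.664 and 0.367, and Nr4a2 at 0.298 and 0.205.

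Among the granule and peptide processing genes, which make and pack peptide hormones, 2 of 17 over the floor (of 24 listed) were at least 2-fold higher and none lower. Over all genes the shares were 0.979% and 0.709%. The median log2 ratio of the list was 0.07. Scg2, the gene of the granule protein secretogranin II, was at 0.416 (0.372 to 0.463) and 1.46 (1.38 to 1.56), a ratio of 3.52 (3.10 to 4.00). Pcsk2, which encodes the prohormone convertase PC2 that cuts POMC products further, was at 0.20 (0.169 to 0.233) and 0.571 (0.516 to 0.631), a ratio of 2.86 (2.37 to 3.47). Among the cells without an immediate early UMI both were under 2-fold, with a log2 ratio of 0.17 for Scg2 and 0.28 for Pcsk2. Their levels at E17.5 were 2.92 and 1.22. Outside the Pomc-high cells the genes parted: in Pomc-low neurons Scg2 had a ratio of 1.90 but Pcsk2 one of 0.532, from 0.953 to 0.507.

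The other members over the floor were not called. Pcsk1n, which encodes an inhibitor of the convertase PC1, was at 22.6 and 27.8. Scg5, the gene of the PC2 chaperone 7B2, was at 1.52 and 2.78, a ratio of 1.82 (1.70 to 1.96). Cpe, the carboxypeptidase that trims the cut peptides, was at 5.35 and 5.06, and Chga, the gene of chromogranin A, at 1.17 and 0.568, a ratio of 0.486 that with 0.1 added came to a log2 ratio of -0.92. Pcsk1, the gene of PC1 itself, had 14 and 28 UMIs and was under the floor. At equal depth Scg2 was found in 13.9% and 37.4% of Pomc-high neurons and 5.52% and 5.80% of mesenchymal cells, and Pcsk2 in 8.37% and 22.9% against 4.91% and 1.45%.

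None of the 30 listed genes of other neuropeptide precursors was over the floor. They summed to 1.22 at E13.5 and 1.66 at E15.5, against 35.3 and 42.8 for Pomc alone. The members named here were chosen after their values were seen. Pdyn (prodynorphin) was the most abundant at E15.5, at 0.156 and 0.220, and Sst (somatostatin) was at 0.159 and 0.211, but 85.5% and 78.8% of the Sst UMIs lay in 5 cells of each library. Tac2 (neurokinin B) had 2 UMIs at E13.5 and 68 at E15.5, a ratio of 38.5 (10.2 to 324), in 25 of 524 cells. A single cell held 12 of the 68 UMIs, and 5 cells held 37. At equal depth its share was 0.220% and 2.96% (1.67 to 4.84), and that of mesenchymal cells 0 of 163 and 2 of 69, which is 2.90% (0.353 to 10.1), so the E15.5 share was not above that of these few cells. Agrp, the antagonist of melanocortin receptors, had 5 and 26 UMIs, and Npy 57 and 111. Cartpt, often found with Pomc in the adult, had 4 and 18.

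Fast transmitter genes were also scarce, with 2 of 17 over the floor. Slc17a6, the vesicular glutamate transporter gene, was at 0.432 and 0.234, a ratio of 0.542 (0.447 to 0.656), and was found in 20.0% and 9.09% of thinned cells, against 8.59% and 4.35% of mesenchymal cells. Gad1, which encodes an enzyme of GABA synthesis, was under the floor with 10 UMIs at E13.5 and 109 at E15.5, a ratio of 12.3 (6.45 to 26.4), in 1.75% and 15.3% of the cells. Its thinned shares were 0.881% and 6.32%, with 0 of 163 and 2.90% in mesenchymal cells. The second such enzyme gene, Gad2, had 33 and 31 UMIs.

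Receptors for glutamate and GABA had the highest median of the neuronal lists, a log2 ratio of 0.45 over 14 genes of 36. Of these 2 were at least 2-fold higher (0.979% over all genes) and none lower (0.709%). Both were AMPA receptor subunits. Gria1 was at 0.115 (0.0926 to 0.141) and 0.568 (0.514 to 0.628), a ratio of 4.94 (3.92 to 6.28), and Gria2 at 0.806 and 1.95, a ratio of 2.43 (2.2 to 2.67). Gria4 was at 0.307 and 0.278. The GABA receptor subunit gene Gabra5 was at 0.407 and 0.830, a ratio of 2.04, and was not called once 0.1 was added. In Pomc-low neurons the list's median was 0.67. At equal depth Gria1 was found in 6.17% and 26.9% of Pomc-high neurons, and in 2.45% and 15.9% of mesenchymal cells.

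Most genes of the synapse and of excitability were less than 2-fold apart. Of all genes over the floor, 0.979% were at least 2-fold higher and 0.709% at least 2-fold lower. Of 28 synaptic vesicle and active zone genes over the floor (of 34) 1 was called: Nrxn3, the presynaptic adhesion gene neurexin 3, at 0.156 and 0.621, a ratio of 3.98 (3.25 to 4.90). Of 18 channel genes over the floor (of 46) none was 2-fold apart, and the extremes were Kcnip1 (0.381 and 0.690) and Kcnb2 (0.489 and 0.276). Of 22 cell adhesion genes over the floor (of 45) 3 were at least 2-fold higher and none lower. These were Cadm1 (0.324 and 1.32, a ratio of 4.09, 3.55 to 4.72), Negr1 (0.408 and 1.21, a ratio of 2.97) and Pcdh17 (0.214 and 0.593, a ratio of 2.78). Among the cells without an immediate early UMI Cadm1 had a log2 ratio of 0.29 and Nrxn3 one of 0.85, both under 2-fold. In Pomc-low neurons the ratio of Cadm1 was 1.24 and that of Negr1 was 1.22. The median log2 ratios of these 3 lists were 0.07, -0.03 and 0.00.

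Axon guidance genes were between in all 20 cases over the floor (of 47), with a median log2 ratio of -0.02. The receptor gene Robo2 (2.16 and 1.08) had the lowest log2 ratio, -0.94, and the semaphorin receptor gene Nrp2 (0.122 and 0.338) the highest, 0.99. None of the cholesterol synthesis genes was called: 14 of 16 were over the floor, with a median of -0.29 and a range from -0.63 for Hmgcs1 (3.94 and 2.51) to 0.31 for Msmo1 (0.907 and 1.14). Of 48 genes of hormone, peptide and monoamine receptors and their signalling 7 were over the floor, none 2-fold apart, with a median of -0.11. The cannabinoid receptor gene Cnr1 was at 1.32 and 0.791 and the insulin receptor gene Insr at 0.261 and 0.276. The leptin receptor gene Lepr had 2 and 6 UMIs, and Mrap2, an accessory protein gene of melanocortin receptors, 3 and 47, a ratio of 17.7 (5.70 to 89.0).

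**Figure D3:**
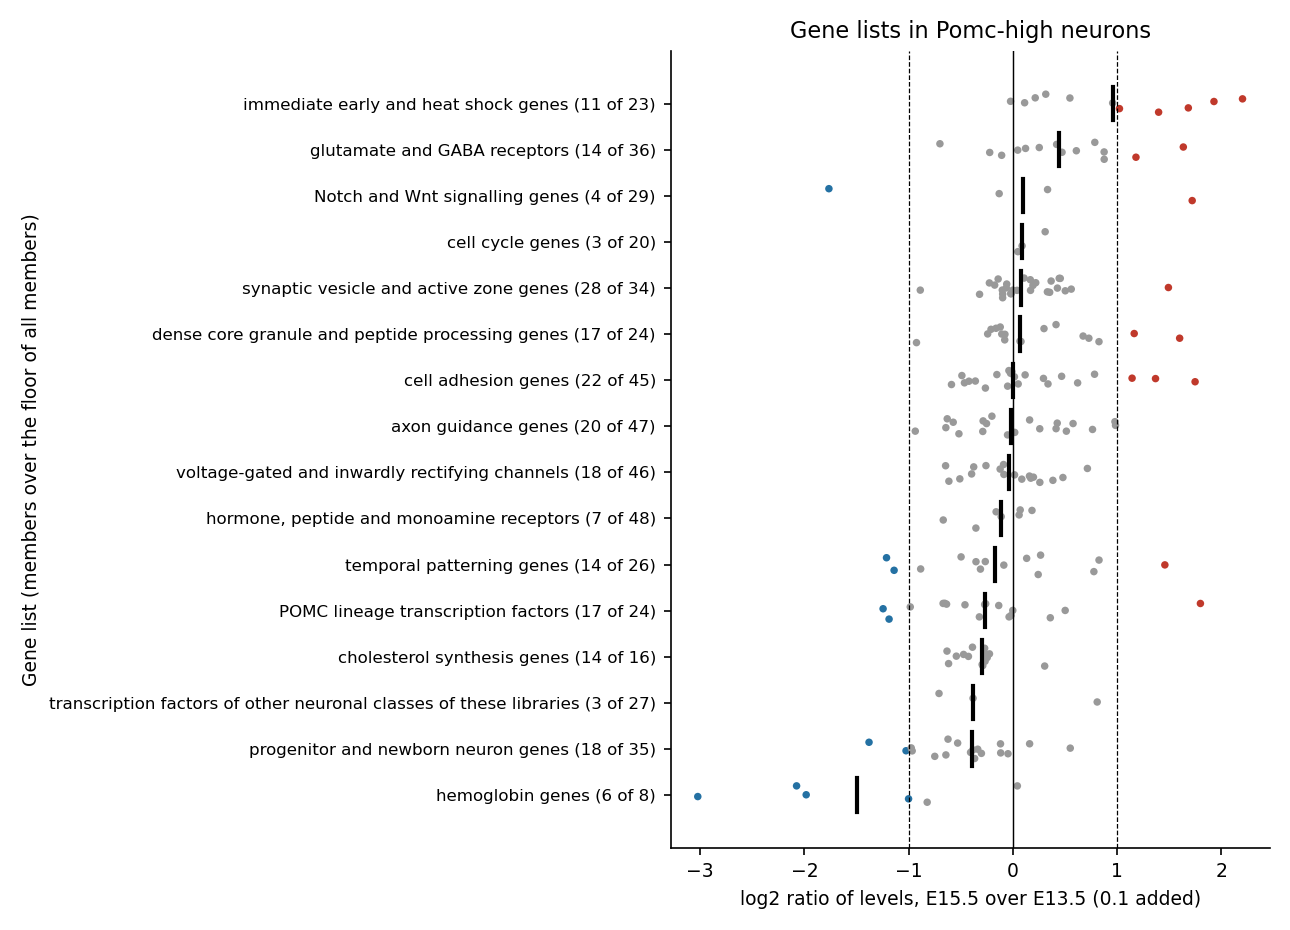
log2 ratio of each gene (points, x axis) in the lists with at least 3 members over the floor (y axis, with the number over the floor of the number listed), red when at least 2-fold higher at E15.5 and blue when at least 2-fold lower. Black bars are medians, which run from 0.96 for the immediate early and heat shock genes to -1.49 for the hemoglobin genes.

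Immediate early genes, which cells switch on within minutes of a stimulus, including the handling of tissue, made up the list with the highest median. It was a log2 ratio of 0.96 over 11 of 23 genes, with 5 at least 2-fold higher (0.979% over all genes) and none lower (0.709%). Fos was at 0.220 (0.188 to 0.255) and 1.37 (1.29 to 1.46), a ratio of 6.25 (5.30 to 7.39). Jun was at 0.349 and 1.61, Junb at 0.145 and 0.686, Egr1 at 0.0883 and 0.396, and Dusp1, a phosphatase gene, at 0.380 and 0.875. Dusp1 lay near the limit and missed 2-fold under 4 other choices of cells or scaling, with log2 ratios from 0.90 to 0.99. The heat shock genes Hspa8 (34.3 and 37.1) and Hsp90aa1 (9.44 and 11.8) were between. Fos was also higher at E15.5 outside the Pomc-high neurons, at 0.355 and 1.5 in Pomc-low neurons and 2.45 and 5.15 in mesenchymal cells, and Junb at 0.848 and 2.73 in the latter. Digestion was 10 min longer at E15.5, and its part in these values was not tested.

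The promoters of these genes were read for a few sequence elements. RefSeq promoters of build GRCm38.p6, from 250 bases before to 50 after a gene's start, were read for 43 of the 58 higher and 29 of the 42 lower genes. The promoters of the remaining called genes, Egr1 among them, were not searched. Their absence from the counts below therefore does not mean that they lack a match or a RefSeq promoter. The cyclic AMP response element (CRE) TGACGTCA, searched on both strands, was found in 3 of the 43, 0 of the 29 and 2.03% of 27025 genes. The AP-1 site TGANTCA, bound by Fos and Jun proteins, was found in 4, in 5 and in 8.97%. The TATA box TATAAA was found in 8, in 4 and in 15.7%. The CArG box was found in 2, in 0 and in 1.81%, the SF-1 site CAAGGTCA of the Nr5a1 protein in 1, in 0 and in 1.76%, and the T-box site AGGTGTGA in 0, in 0 and in 1.48%. The 27025 genes were not limited to those over the floor, as the called genes were, so these shares are of unlike sets. These are matches of letters, given as a description and not as binding sites. The promoter of Fos, the gene with the highest ratio of its list, and the 3 promoters with a CRE are printed below 5′ to 3′, with the TATA box of Fos and the CRE of the others in capitals. Fos lies at chr12:85473640-85473939 on the plus strand, Dusp1 at chr17:26508423-26508722 on the minus strand, Scg2 at chr1:79439977-79440276 on the minus strand, and the second of the 2 Zdbf2 promoters at chr1:63273019-63273318 on the plus strand.
Fos: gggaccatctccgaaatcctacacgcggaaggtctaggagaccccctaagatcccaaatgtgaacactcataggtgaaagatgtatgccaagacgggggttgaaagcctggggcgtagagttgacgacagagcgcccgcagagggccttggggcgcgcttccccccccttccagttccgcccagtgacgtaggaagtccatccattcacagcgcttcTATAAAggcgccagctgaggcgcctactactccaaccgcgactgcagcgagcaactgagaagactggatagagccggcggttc
Dusp1: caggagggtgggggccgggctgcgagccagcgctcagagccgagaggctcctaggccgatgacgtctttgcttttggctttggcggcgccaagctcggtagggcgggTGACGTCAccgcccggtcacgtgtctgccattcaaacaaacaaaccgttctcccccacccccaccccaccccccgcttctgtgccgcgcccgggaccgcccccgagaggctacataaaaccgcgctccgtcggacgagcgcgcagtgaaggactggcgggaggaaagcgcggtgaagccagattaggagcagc
Scg2: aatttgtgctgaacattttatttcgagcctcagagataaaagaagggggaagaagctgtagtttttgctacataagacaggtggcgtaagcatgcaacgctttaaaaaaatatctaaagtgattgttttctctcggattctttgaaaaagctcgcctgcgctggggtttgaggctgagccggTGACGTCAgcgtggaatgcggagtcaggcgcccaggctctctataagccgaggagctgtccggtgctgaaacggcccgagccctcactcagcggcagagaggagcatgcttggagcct
Zdbf2: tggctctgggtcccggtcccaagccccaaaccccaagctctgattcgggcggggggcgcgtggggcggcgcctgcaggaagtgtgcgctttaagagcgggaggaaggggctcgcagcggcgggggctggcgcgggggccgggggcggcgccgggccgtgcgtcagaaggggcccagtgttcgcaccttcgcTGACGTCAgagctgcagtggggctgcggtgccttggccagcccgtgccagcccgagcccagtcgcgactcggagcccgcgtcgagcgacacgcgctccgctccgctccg
The CRE began 143 bases before the start in Dusp1, 68 bases before it in Scg2 and 59 bases before it in Zdbf2. Zdbf2, a gene expressed from the paternal allele, was at 0.646 and 1.40, a log2 ratio of 1.01, and was named for this match.

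The remaining leading genes had diverse roles. Fam183b, a gene of cilia, was at 0.177 and 1.19, a ratio of 6.77 (5.65 to 8.17). Baiap3, which acts in dense-core vesicle traffic, was at 0.0563 and 0.427, a ratio of 7.58 (5.51 to 10.7). Pcp4, the gene of a calmodulin-binding peptide, was at 0.335 and 1.46, a ratio of 4.37 (3.81 to 5.02). Among the cells without an immediate early UMI Baiap3 (0.97) and Pcp4 (0.89) had log2 ratios just under 1. Pcp4 was the clearest case of opposite values in the 2 classes of neuron, at 5.48 and 3.03 in Pomc-low neurons. Rit2, a small GTPase gene of neurons, was at 0.420 and 1.53, and Fxyd7, a regulator of the sodium pump, at 0.536 and 1.86, and both had ratios over 3 in Pomc-low neurons as well, of 3.70 and 3.24.

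On the lower side, S100a10, which encodes a partner of annexin A2, was at 10.5 (10.3 to 10.7) and 4.14 (3.99 to 4.29), 2.54-fold lower, with 0.731 at E17.5. Lxn, a carboxypeptidase inhibitor gene, was at 2.29 and 0.770. Tmeff1, a transmembrane protein gene, was at 6.02 and 2.28. Cbln1, the gene of a secreted synapse organizer, was at 1.92 and 0.702, while in Pomc-low neurons its ratio was 0.894. H2-Ab1, which encodes a chain of the class II antigen-presenting complex, was at 1.67 (1.58 to 1.76) and 0.606 (0.549 to 0.667), and was found in 64.5% and 18.3% of the cells. Its level in Pomc-low neurons was 0.107 and 0.0787 and in mesenchymal cells 0.0321 at both ages. The lysophosphatidic acid receptor gene Lpar1 (0.518 and 0.126), Fblim1 (0.487 and 0.122), Aim1 (0.396 and 0.0882), the chloride channel gene Clic1 (1.52 and 0.518), the creatine synthesis gene Gamt (0.382 and 0.0897) and the factor gene Dach1 (0.512 and 0.158) completed the 15.

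**Figure D4:**
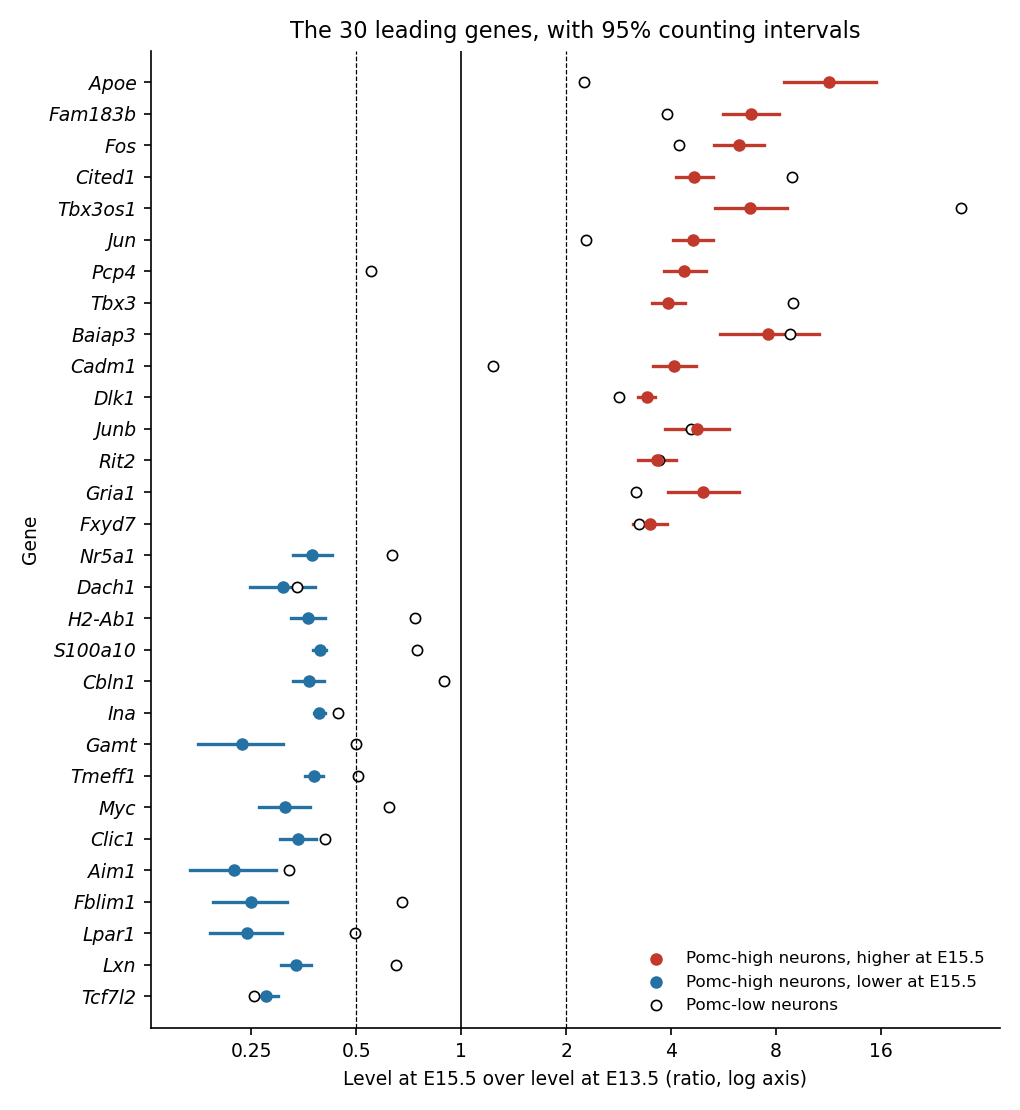
Ratio of the level at E15.5 over that at E13.5 (x axis, log) for the 15 called genes with the highest and the 15 with the lowest log2 ratio (y axis), in Pomc-high neurons with 95% counting intervals (filled) and in Pomc-low neurons (open). Pcp4 lies at 4.37 in Pomc-high and 0.552 in Pomc-low neurons, and Tbx3 at 3.92 and 8.94.

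Apoe, an apolipoprotein gene of glia and microglia, had the highest log2 ratio, with 49 UMIs at E13.5 and 491 at E15.5 (0.0627 and 0.710), but it rested on few cells. A single cell held 378 of the 491 UMIs, and without the 5 cells with the most Apoe in each library the levels were 0.0506 and 0.149. The microglia markers C1qb and Tyrobp had 111 of 124 and 63 of 70 UMIs in a single cell at E15.5. Among cells without a UMI of the 9 microglia markers (445 and 471 cells) the log2 ratio of Apoe was 0.67, under 2-fold, and among those without an immediate early UMI it was 0.41. Apoe is given for this reason as a value of a few cells and not of Pomc-high neurons.

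Sex-linked transcripts differed between the libraries. Xist was at 3.52 and 10.5, and cells with a Xist UMI and none of the Y-linked genes Ddx3y, Eif2s3y, Kdm5d and Uty made up 34.2% of the cells of the younger library and 66.2% of the older. Among these cells alone (156 and 347), 29 of the 30 leading genes remained at least 2-fold apart in the same direction, Gamt being the exception at a log2 ratio of -0.73, and among cells with a Y-linked and no Xist UMI (189 and 81) 29 did, Apoe being the exception at 0.54. These 2 comparisons were chosen after the data were seen. Cells with both kinds of UMI made up 9.43% at E13.5 and 8.02% at E15.5, and cells with neither 14.9% and 10.3%. Whether a cell lacks such a UMI also depends on its depth, which was not matched, so these choices do not cleanly separate the sexes.

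Levels at all 4 embryonic ages placed the step from E13.5 to E15.5 in its course. Tbx3, Tbx3os1, Cited1, Scg2 and Pcsk2 were higher at each later age. Ina and Sox14 were lower at each later age, and Nr5a1 was at 1.29, 1.21, 0.454 and 0.0345. Pomc was at 32.7, 35.3, 42.8 and 25.8, with its highest level at E15.5. Fos was highest at E15.5 among the 4 ages, with 0.0743 at E11.5 and 1.00 at E17.5, and the digestion time was 20 min at E11.5 and 40 min at E17.5.

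**Figure D5:**
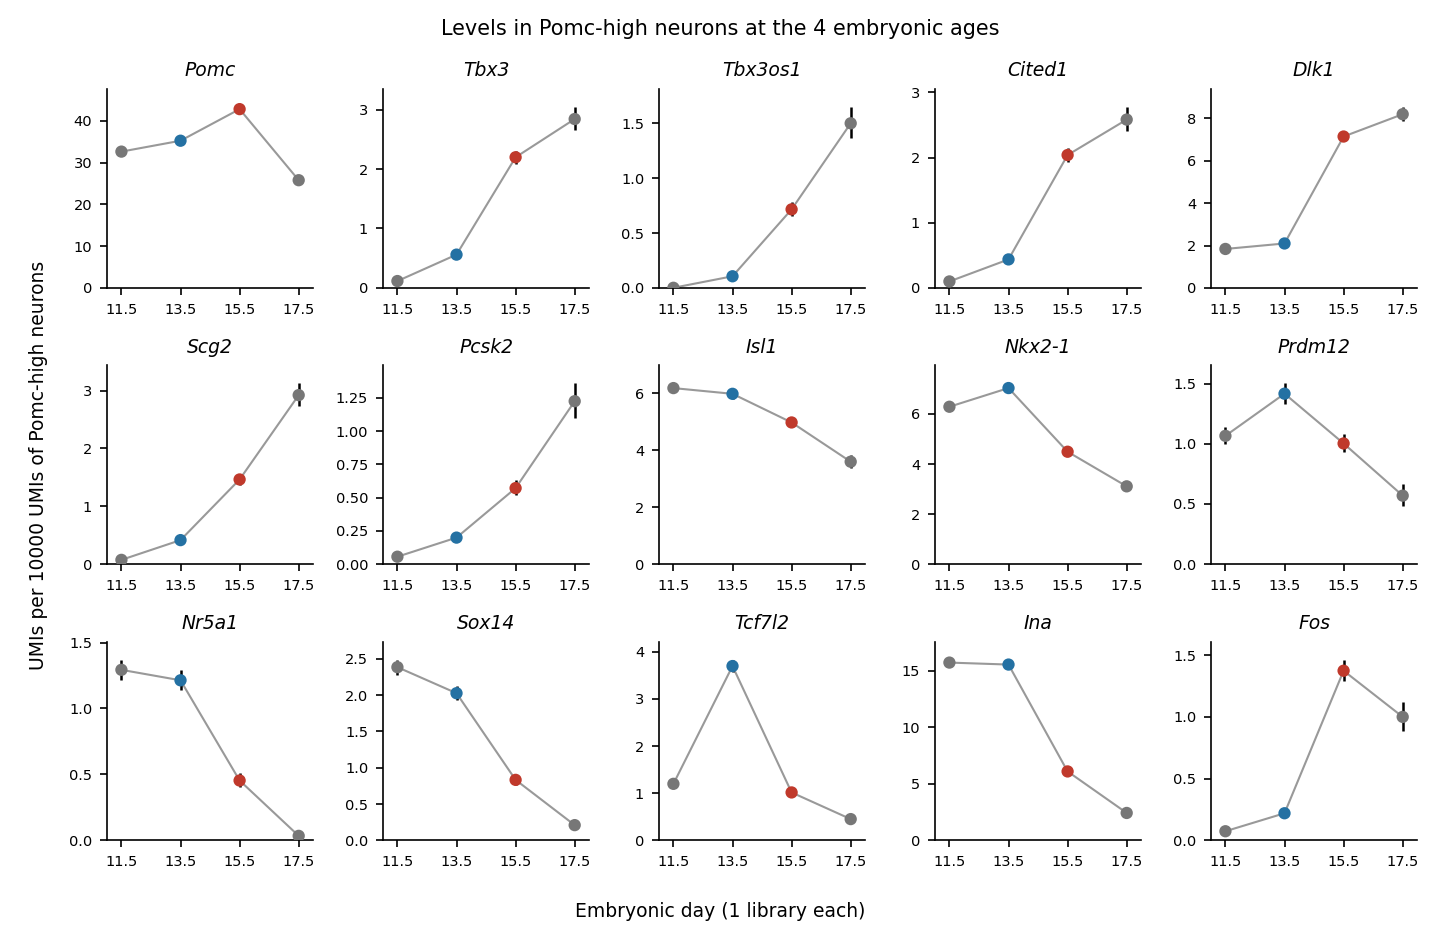
Level in Pomc-high neurons (y axes, UMIs per 10000 UMIs, each from 0) of 15 genes at the 4 embryonic ages (x axes in days, 1 library each), with 95% Poisson intervals. Tbx3 goes from 0.560 to 2.2 and Nr5a1 from 1.21 to 0.454 between E13.5 (blue) and E15.5 (red), and Pomc is highest at E15.5.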

How the data were processed

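The authors made the UMI counts with Cell Ranger (versions 2.2.0 and 3.0.0 are named in the submitters' processing notes, with build mm10 and Seurat 3.0, without saying which library used which), removed cells by genes, UMIs, mitochondrial and hemoglobin shares and by the absence of Pomc, and deposited the raw counts of the rest per gene and cell. All deposited values used were whole numbers, with 27998 gene names in each of the 4 embryonic libraries. The 2 postnatal libraries, made with other reagents, were not used here. Counts were summed over cells and compared with Python 3.11.15, numpy 2.4.6, scipy 1.17.1 and pandas 2.3.3. Levels are per 10000 UMIs, with 0.1 added before the log2 ratio, a floor of 0.2 and a fold of 2. The scripts were tested on simulated data. Intervals at 95% are Poisson for levels, Clopper-Pearson for shares, and an exact binomial split for ratios. Limits for 0 cells use 3 counts. Mesenchymal cells had a UMI on at least 4 of 9 marker genes, at least 10 such UMIs per 10000 and less Pomc than the rule, and 68 of 163 and 28 of 69 of them also met the neuronal part of the rule. Of the Pomc-high neurons, 3 and 2 had at least 4 of these markers. Doublets were not removed: Scrublet (scanpy 1.11.5) called 13 of 1796 and 9 of 2078 cells, a share too small to rely on at E15.5, so leaving out the 5% with the highest scores was an alternative.

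The rule, the markers and the 28 gene lists were chosen with earlier results of these data known. Genes were named by rule: the genes of the rule as a description, the 15 highest and 15 lowest log2 ratios among called genes, leaving out mitochondrial, ribosomal, hemoglobin, sex-linked and unnamed transcripts (3 of the 58 and 5 of the 42), and up to 8 members of each list. Of the other lists, 12 mitochondrially encoded and 94 ribosomal protein genes were over the floor, with none called, 4 of 6 hemoglobin genes over the floor were at least 2-fold lower, and 1 of 2 sex-linked genes (Xist) at least 2-fold higher. Gene positions come from GENCODE M21 and promoters from RefSeq. Single values of some list members are not reported here.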

Additional observations from a re-analysis of the deposited data

How the results depend on the processing

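The counts of 58 higher and 42 lower genes depended most on the constant and the floor: with 0.01 added they were 88 and 74, with 1 added 7 and 6, with a floor of 1 they were 16 and 17, and with a floor of 0.05 or none the higher genes were 90. In cells with no Fos, Jun, Junb or Egr1 UMI (193 and 96 cells, chosen after seeing the data) they were 32 and 67, and the cause was not tested. The other changes of cells and scaling left both counts within 1.5 times. Of 450 values of the 30 leading genes under 15 alternatives, 425 stayed at least 2-fold in the same direction and none changed direction. Changes of the floor cannot alter a log2 ratio, so the 30 values under each of them repeat the main result. A constant of 0.01 can only move a ratio outward. Of 117 values under the 4 alternatives chosen after seeing the data, 109 stayed at least 2-fold in the same direction, and none was reversed. Apoe was at 0.69 among cells with 8000 to 20000 UMIs and 0.71 among cells with at least 5 neuronal genes. In cells without immediate early UMIs, Apoe was at 0.41, Cadm1 at 0.29, Nr5a1 at -0.75, Pcp4 at 0.89 and Baiap3 at 0.97, and of the other named genes Scg2 was at 0.17, Pcsk2 at 0.28, Nrxn3 at 0.85 and Cdkn1c at -0.48. No paired analysis was possible because each age is 1 library. Depth limits genes with few UMIs, such as Tac2 and Agrp.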

Other observations

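Genes outside the rule for names, chosen after their values were seen, added to the picture of Pomc-high neurons. Zcchc12, a zinc finger coactivator gene, was at a level of 1.32 UMIs per 10000 at E13.5 and 3.93 at E15.5, and Nap1l5, an imprinted gene, at 1.85 and 4.74. Calb1, the gene of the calcium-binding protein calbindin, was at 1.12 and 2.43, with a UMI in 39.5% and 59.7% of the cells. The factor gene Etv1 was at 0.0729 and 0.331, and the hypothalamic homeobox gene Nkx2-4 at 0.104 and 0.340. Lower at E15.5 were Nell2, a secreted guidance protein gene (3.16 and 1.42), the cholecystokinin receptor gene Cckar (0.567 and 0.216), the neuronal pentraxin gene Nptx1 (0.395 and 0.123) and the kinase gene Prkcd (0.496 and 0.175). With 1 library an age none of these differences has a replicate check.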
